A study of Mus musculus with 20 samples.

Results

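The kidney genes that carry phosphate and calcium across the tubule, sense the phosphate hormone FGF23 through Klotho and make, break down and answer active vitamin D were followed in whole kidneys of mice with and without telomerase. The group was set by name: the sodium-phosphate cotransporters Slc34a1, Slc34a3 and Slc20a2, Klotho (Kl), the vitamin D enzymes Cyp27b1 and Cyp24a1, the vitamin D receptor Vdr, and the calcium genes Trpv5, Calb1 and S100g. All 10 were among the 19940 genes of the table, and 9 of them reached a normalized read count of 10 in at least 5 libraries, the level needed for the test across genes; Cyp27b1 did not.

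RNA came from kidneys of 20 male mice in 4 groups of 5: G3 Tert-/- mice at 47 weeks (old), Tert+/+ mice at 47 weeks, G3 Tert-/- mice at 7 weeks (young) and Tert+/+ mice at 7 weeks. Tert encodes the catalytic subunit of telomerase, and G3 stands for generation 3 of mice without it, in which telomeres have shortened over the generations. The labels name no treatment, and the sources used here state neither strain nor litter. The whole kidney was read, so a lower count cannot be told apart between fewer cells of a tubule segment and less RNA per cell. Each library held 7161690 to 9757594 reads assigned to genes. Old mice had fewer on average, with 7161690 to 7676486 in G3 Tert-/- and 7300298 to 8156022 in Tert+/+ libraries. Young mice had 7486637 to 9384047 in G3 Tert-/- and 7732866 to 9757594 in Tert+/+ libraries. Tert itself was read at 5.11 to 8.31 normalized counts in old G3 Tert-/- mice against 7.25 to 16.9 in old Tert+/+ mice, and at 0.979 to 5.65 in young G3 Tert-/- mice against 4.21 to 15.7 in young Tert+/+ mice. These libraries read the 3′ ends of transcripts, and the sources used here do not say which part of Tert was deleted, so these counts do not check the genotype labels. Markers of every kidney segment listed were present in all libraries. Old Tert+/+ replicate 4 and young Tert+/+ replicate 1 stood apart from the other libraries on the first principal component. Signs that turned without both are given below. Some other values that had not passed also moved, and not all of these are listed. By genotype at 7 weeks, the log2 fold change of Slc34a1 went from -0.18 to -0.073 and that of Vdr from 0.034 to 0.18.

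The proximal tubule recovers most filtered phosphate through Slc34a1 and Slc34a3 in its brush border, and FGF23, acting with Klotho, and parathyroid hormone lower the amount of these transporters. Farther along, in the distal convoluted and connecting tubule, calcium enters through the channel Trpv5, is carried across the cell by the calbindins Calb1 and S100g, and leaves through the exchanger Slc8a1 and the pump Atp2b1. Active vitamin D, made by Cyp27b1 and broken down by Cyp24a1, binds Vdr, which pairs with retinoid X receptors on DNA and raises the calcium genes.

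Upstream sequences of the members were read because Vdr binds pairs of short hexamers near its targets. RefSeq windows (GRCm38.p6, 250 bases before to 50 after a gene's start) matched 7 of the 10 members. Those of Slc34a1 and Vdr lie wholly inside the gene spans given below, downstream of where those spans start. Sequence before the start of those spans was therefore not read for Slc34a1 and Vdr. The windows of the calbindin S100g and the channel Trpv5, which serve the same calcium route, and of both Slc34 transporters are shown for the presence or absence of the hexamers AGGTCA and GGTTCA. Capitals mark either hexamer on either strand, so that TGACCT and TGAACC are their reverse complements. The windows lie at chrX:162964550-162964849 on the minus strand (S100g), chr6:41680674-41680973 on the minus strand (Trpv5), chr2:25234185-25234484 on the minus strand (Slc34a3) and chr13:55399398-55399697 on the plus strand (Slc34a1), each printed 5′ to 3′ on the gene's strand.
S100g: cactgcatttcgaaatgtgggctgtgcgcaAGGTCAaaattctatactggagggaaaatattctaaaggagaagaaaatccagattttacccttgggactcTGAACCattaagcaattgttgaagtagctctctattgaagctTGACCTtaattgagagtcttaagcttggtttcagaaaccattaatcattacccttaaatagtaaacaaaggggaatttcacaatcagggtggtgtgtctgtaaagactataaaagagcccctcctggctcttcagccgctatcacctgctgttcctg
Trpv5: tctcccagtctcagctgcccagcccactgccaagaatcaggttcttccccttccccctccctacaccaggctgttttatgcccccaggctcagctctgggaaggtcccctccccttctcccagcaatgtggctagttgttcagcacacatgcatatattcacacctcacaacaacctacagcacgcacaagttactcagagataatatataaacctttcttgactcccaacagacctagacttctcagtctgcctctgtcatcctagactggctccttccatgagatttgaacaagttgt
Slc34a3: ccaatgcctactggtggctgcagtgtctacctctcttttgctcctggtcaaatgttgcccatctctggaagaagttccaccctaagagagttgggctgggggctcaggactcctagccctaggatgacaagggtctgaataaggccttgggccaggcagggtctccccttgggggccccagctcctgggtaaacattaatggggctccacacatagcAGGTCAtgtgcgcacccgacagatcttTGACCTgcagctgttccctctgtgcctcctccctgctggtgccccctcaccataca
Slc34a1: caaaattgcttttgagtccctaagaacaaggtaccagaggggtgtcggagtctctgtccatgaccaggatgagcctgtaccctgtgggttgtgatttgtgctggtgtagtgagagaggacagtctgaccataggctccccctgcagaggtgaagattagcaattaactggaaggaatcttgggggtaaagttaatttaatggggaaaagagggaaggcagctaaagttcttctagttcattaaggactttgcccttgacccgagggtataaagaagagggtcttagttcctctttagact
The S100g window held AGGTCA at bases 31 to 36 and, on the opposite strand, at bases 144 to 149, with GGTTCA on the opposite strand at bases 102 to 107. In the Slc34a3 window AGGTCA lay at bases 218 to 223 and, on the opposite strand, at bases 245 to 250. No other member's window held either hexamer. Of 32851 RefSeq windows of this length, 16.3% held AGGTCA and 10.4% held GGTTCA on either strand. Same-direction pairs spaced as the vitamin D receptor prefers (DR3) were sought with looser hexamers, which also took AGTTCA and GGGTCA. Such a pair stood in 0.0396% of all windows and in none of the 7.

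The clearest change in the group was in the transcripts of the calcium-carrying calbindins, both of which were lower in old than in young kidneys. In G3 Tert-/- mice, S100g fell 1.94-fold and Calb1 fell 1.52-fold with age, and in neither gene did any old mouse reach a young one, a lack of overlap that 2.66% of all tested genes showed in this direction. These were 2 of the 9 members tested, both lower, and 2.24% of all 14630 tested genes passed in this comparison in either direction; genes that passed as lower were 1.31% of all tested. A gene passed when its p from limma on log2(normalized count + 1), adjusted over all tested genes by the Benjamini-Hochberg method, was under 0.05.

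S100g lies at X:162961992-162964599 on the minus strand (GRCm38) and encodes the small calbindin, a buffer that ferries calcium through the cell. Its normalized counts were 7050, 7951, 7375, 5994 and 4629 in old G3 Tert-/- mice, against 12737, 17366, 11278, 12576 and 10002 in young G3 Tert-/- mice. In Tert+/+ mice they were 10360, 6656, 8526, 7317 and 8447 at 47 weeks, against 21294, 13408, 10892, 9256 and 10673 at 7 weeks. All 5 old G3 Tert-/- mice were below all young ones, whereas in Tert+/+ mice 4 of 5 old mice were below every young mouse and the highest old value passed only the lowest young one. The means were 6600 ± 1311 at 47 weeks and 12791 ± 2786 at 7 weeks in G3 Tert-/- mice, and 8261 ± 1412 at 47 weeks and 13105 ± 4816 at 7 weeks in Tert+/+ mice (SD, n = 5 each). The log2 fold change with age was -0.95 ± 0.20 in G3 Tert-/- mice (SE; limma adjusted p = 0.00824) and -0.62 ± 0.20 in Tert+/+ mice (limma adjusted p = 0.190), which did not pass. The difference between these age effects was -0.34 ± 0.28 on the log2 scale (limma interaction, adjusted p = 0.865), so the age effect was not shown to differ between genotypes. Without both libraries that stood apart, the log2 fold change in Tert+/+ mice was -0.38 (limma adjusted p = 0.382) and the interaction was -0.57 (limma adjusted p = 0.562).

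Calb1, at 4:15881264-15908064 on the plus strand, encodes the larger calbindin of the distal tubule. It was counted at 1988, 1658, 1840, 1652 and 1323 in old G3 Tert-/- mice, against 2562, 3096, 2794, 2138 and 2281 in young G3 Tert-/- mice. The Tert+/+ mice had 1943, 1279, 1559, 1401 and 1848 at 47 weeks, against 1918, 1958, 2096, 2220 and 3283 at 7 weeks. Here too the G3 Tert-/- ages did not overlap, and 4 of 5 old Tert+/+ mice were below every young one. Calb1 fell by 0.61 ± 0.15 on the log2 scale with age in G3 Tert-/- mice (SE; limma adjusted p = 0.0327), to 1692 ± 249 in old mice against 2574 ± 386 in young ones (SD, n = 5 each). The value in Tert+/+ mice was -0.50 ± 0.15 (limma adjusted p = 0.156), with means of 1606 ± 284 in old mice and 2295 ± 565 in young ones, and the interaction was -0.10 ± 0.21 (limma adjusted p = 0.949). The Calb1 call in G3 Tert-/- mice was lost when old replicate 2, 4 or 5 or young replicate 1, 2 or 3 of that genotype was left out, with limma adjusted p of up to 0.115, while its log2 fold change stayed between -0.67 and -0.52 over all 20 omissions. S100g kept its call in all 20.

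**Figure D1:**
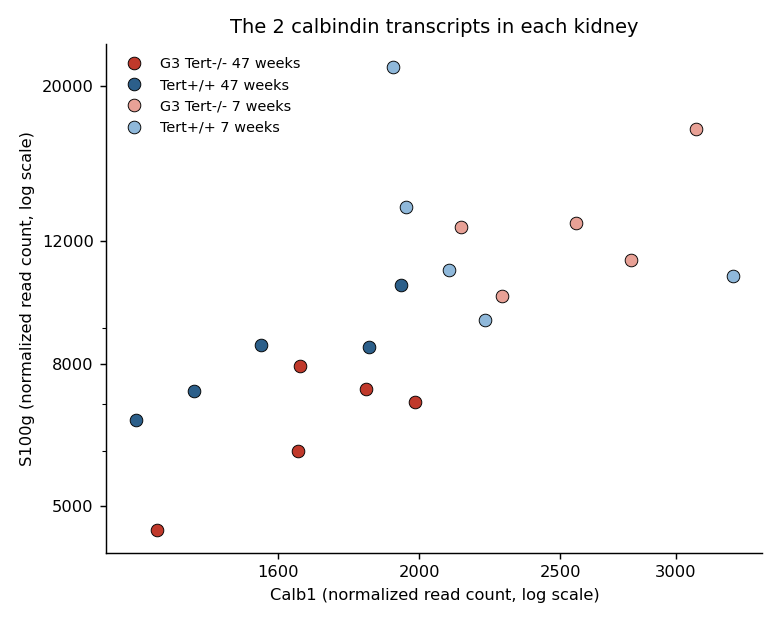
Normalized read counts of Calb1 (x axis, log scale) and S100g (y axis, log scale) in each of the 20 mice; each point is 1 mouse, coloured by group. Old G3 Tert-/- mice lie at the lower left, up to 1988 for Calb1 and 7951 for S100g, and all young G3 Tert-/- mice lie above both levels.

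Trpv5, at 6:41652173-41680769 on the minus strand, is the channel by which calcium enters these cells. Its counts were low: 29.6, 20.5, 32.2, 58.2 and 43.4 in old G3 Tert-/- mice, against 40.9, 65.6, 25.4, 29.1 and 47.2 in young ones. Old Tert+/+ mice had 44.6, 29.6, 27.3, 36.0 and 36.7, against 41.3, 39.5, 41.1, 41.6 and 53.0 in young Tert+/+ mice. The G3 Tert-/- ages overlapped widely, and 4 of 5 old Tert+/+ mice were below all young ones. With age the log2 fold change was -0.18 ± 0.25 in G3 Tert-/- mice (95% interval -0.70 to 0.34, limma adjusted p = 0.800) and -0.32 ± 0.25 in Tert+/+ mice (-0.84 to 0.20, limma adjusted p = 0.697), so a fall as large as that of Calb1 lies inside both intervals.

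Summed marker counts of the segments that hold the calbindins moved in different directions with age, but the connecting tubule and principal cell sum was mostly Klk1. Summed normalized counts of the 7 listed distal convoluted tubule markers ranged over 12568 to 16732 in old G3 Tert-/- mice against 10424 to 12782 in young ones, and over 13131 to 16286 in old Tert+/+ mice against 11344 to 12455 in young ones. Of these 7 markers, Slc12a3, the thiazide-sensitive sodium chloride cotransporter, rose with age in both genotypes, by 0.62 on the log2 scale in G3 Tert-/- mice (limma adjusted p = 0.00251) and by 0.57 in Tert+/+ mice (limma adjusted p = 0.0109), and no other passed in either. The 8 connecting tubule and principal cell markers summed to 7443 to 8516 in old G3 Tert-/- mice against 7383 to 11190 in young ones, and to 5957 to 7262 in old Tert+/+ mice against 6977 to 11886 in young ones; none of the 8 passed in either genotype. The distal convoluted tubule sum was thus higher on average in old mice of both genotypes. The connecting tubule sum was lower on average, with means of 7908 in old against 9222 in young G3 Tert-/- mice. In Tert+/+ mice they were 6810 in old against 8171 in young mice. Most of that sum was 1 gene, Klk1, with means of 5928 in old against 7545 in young G3 Tert-/- mice. Its means in Tert+/+ mice were 4954 in old against 6315 in young ones. Of the 8 markers, 5 had a log2 fold change with age below 0 in G3 Tert-/- mice (median -0.020) and 4 in Tert+/+ mice (median 0.013). The lower sum was thus not shared across the list. Markers of other cell types also moved with age. Of 6 fibroblast markers, Col1a1 and Col3a1 fell in both genotypes, with log2 fold changes of -1.80 and -1.69 in G3 Tert-/- mice and -1.17 and -1.48 in Tert+/+ mice, and the list's sum was 1410 to 1891 in old against 2196 to 4571 in young G3 Tert-/- mice and 1130 to 1804 in old against 2076 to 2775 in young Tert+/+ mice. Of 5 tested B and plasma cell markers, Igkc and Jchain rose in Tert+/+ mice and none passed in G3 Tert-/- mice; that list's sum was 239 to 8374 in old against 158 to 478 in young G3 Tert-/- mice, and 1842 to 7434 in old against 69.3 to 299 in young Tert+/+ mice. The part of any of these cell types in the calbindin values was not tested.

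**Figure D2:**
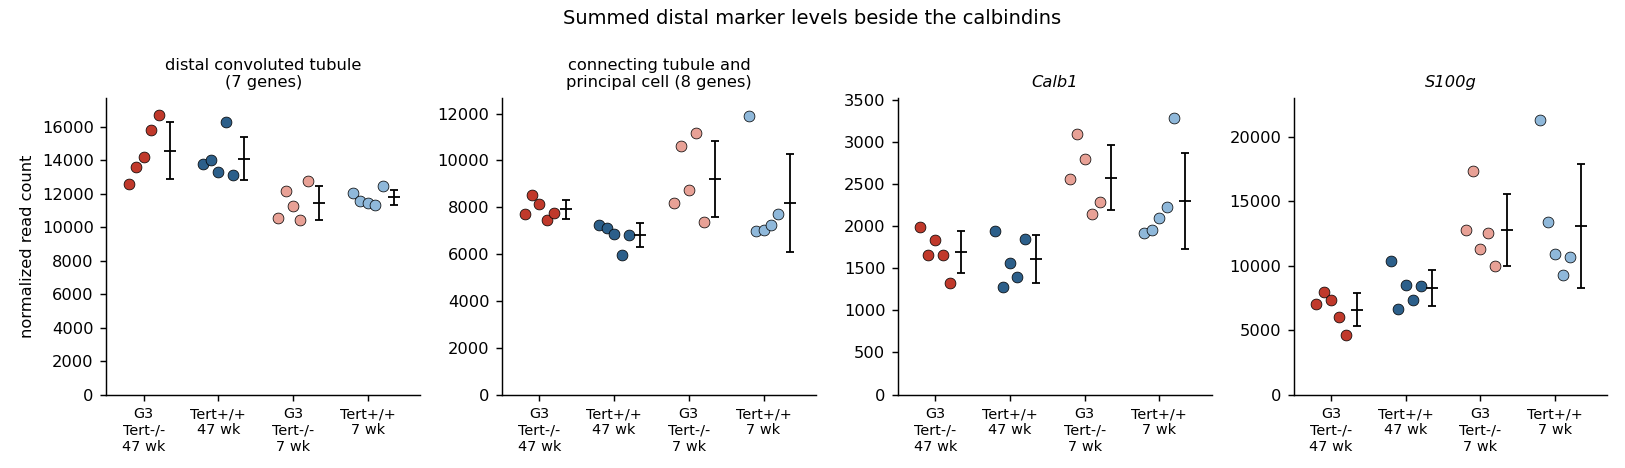
Summed normalized counts of the distal convoluted tubule markers and of the connecting tubule and principal cell markers, beside the normalized counts of Calb1 and S100g, in each mouse (y axes, linear and set for each panel), by group on the x axes; points are mice and bars give the mean ± SD of 5 mice. The distal convoluted tubule sum is higher on average at 47 than at 7 weeks in both genotypes. The connecting tubule and principal cell sum, which is mostly Klk1, is lower on average at 47 weeks in both, as are both calbindins.

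The phosphate transporters of the proximal tubule were lower on average in old mice of both genotypes, but within a single genotype neither passed the test. Slc34a3, at 2:25228898-25234364 on the minus strand, had counts of 83.4, 42.0, 64.4, 54.1 and 26.3 in old G3 Tert-/- mice, against 84.5, 98.8, 75.4, 145 and 77.2 in young ones. Old Tert+/+ mice had 63.2, 39.4, 69.1, 68.7 and 77.9, against 150, 73.3, 60.6, 101 and 106 in young Tert+/+ mice. Of the old G3 Tert-/- mice, 4 of 5 were below every young mouse of that genotype, against 1 of 5 among Tert+/+ mice. The log2 fold change with age was -0.88 ± 0.27 in G3 Tert-/- mice (SE; limma adjusted p = 0.101) and -0.58 ± 0.27 in Tert+/+ mice (limma adjusted p = 0.448).

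Slc34a1, the main sodium-phosphate cotransporter of the mouse proximal tubule, lies at 13:55398187-55415592 on the plus strand, on the chromosome that carries Tert and 18.2 Mb from it. Old G3 Tert-/- mice had 19405, 21604, 23223, 20855 and 23997, against 24853, 29162, 22437, 29901 and 27704 in young ones. Old Tert+/+ mice had 26883, 21116, 20613, 26620 and 22597, against 41220, 27554, 26238, 26736 and 31992 in young Tert+/+ mice. In each genotype 3 of 5 old mice were below every young mouse. The log2 fold change with age was -0.29 ± 0.14 in G3 Tert-/- mice (limma adjusted p = 0.306) and -0.37 ± 0.14 in Tert+/+ mice (limma adjusted p = 0.291). The third phosphate transporter, Slc20a2 (8:22476788-22569612, plus strand), a more widely expressed sodium-phosphate cotransporter, showed no such shift: its log2 fold change with age was -0.03 ± 0.29 in G3 Tert-/- mice (limma adjusted p = 0.981) and 0.24 ± 0.29 in Tert+/+ mice (limma adjusted p = 0.815).

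Proximal tubule markers moved unevenly with age beside these transporters. The 12 listed markers summed to 182560 to 258358 in old G3 Tert-/- mice against 214665 to 348074 in young ones, and to 228271 to 295855 in old Tert+/+ mice against 265921 to 433016 in young ones. Of the 12, Slc5a2, Slc22a6 and Slc22a7 fell with age in G3 Tert-/- mice, where 1.31% of all tested genes passed as lower, and 6 of the 12 had values above 0. None passed in Tert+/+ mice. Averaged over genotypes, the same 3 fell, while Slc22a8 rose by 0.45 (limma adjusted p = 0.0124) and Slc7a13 rose by 0.36 (limma adjusted p = 0.0323). Whether the phosphate transporters moved more than their segment was not tested.

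**Figure D3:**
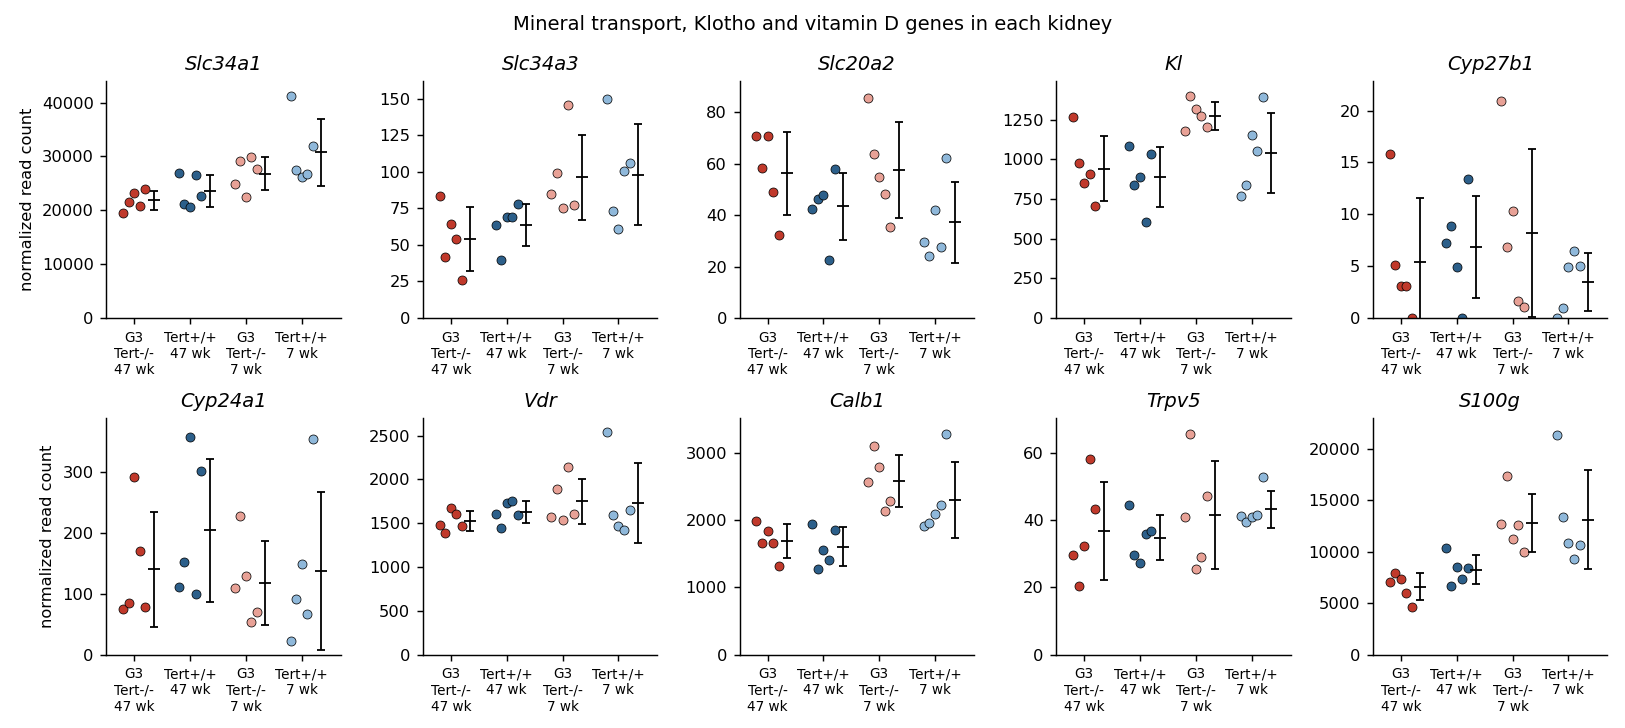
Normalized read counts of the 10 genes in each of the 20 mice (y axes, linear from 0 and set for each gene), by group on the x axes; points are mice and bars give the mean ± SD of 5 mice, cut at 0. S100g and Calb1 show the clearest separation by age, Cyp24a1 varies widely among mice of every group, and Cyp27b1 stays at or under 20.9.

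Klotho (Kl, 5:150952607-150993817, plus strand), the co-receptor that lets FGF23 act on the tubule, was counted at 1265, 978, 854, 906 and 706 in old G3 Tert-/- mice, against 1176, 1397, 1316, 1272 and 1203 in young ones. Old Tert+/+ mice had 1086, 837, 886, 607 and 1032, against 770, 838, 1155, 1055 and 1392 in young Tert+/+ mice. Among G3 Tert-/- mice 4 of 5 old values were below all young ones and 1, replicate 1, lay among them, while the Tert+/+ ages overlapped more. With age the log2 fold change was -0.46 ± 0.17 in G3 Tert-/- mice (limma adjusted p = 0.180) and -0.22 ± 0.17 in Tert+/+ mice (limma adjusted p = 0.680), and neither passed.

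Vdr (15:97854425-97910630, minus strand), the nuclear receptor for active vitamin D, varied little among old mice. It ranged over 1390 to 1680 in old G3 Tert-/- mice (median 1476) against 1542 to 2139 (median 1606) in young ones, and over 1451 to 1753 in old Tert+/+ mice (median 1609) against 1425 to 2538 (median 1596) in young Tert+/+ mice. The log2 fold change with age was -0.19 ± 0.13 in G3 Tert-/- mice (limma adjusted p = 0.537) and -0.06 ± 0.13 in Tert+/+ mice (limma adjusted p = 0.916); the Tert+/+ value was 0.058 without the libraries that stood apart, one of which held the count of 2538.

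The vitamin D enzymes gave no difference that passed. Cyp24a1 (2:170482708-170497145, minus strand), which inactivates vitamin D metabolites, had 75.0, 84.9, 293, 171 and 77.8 in old G3 Tert-/- mice, against 109, 228, 130, 53.1 and 69.7 in young ones. Old Tert+/+ mice had 112, 152, 357, 99.1 and 302, against 22.6, 91.6, 150, 67.5 and 355 in young Tert+/+ mice. Single mice of every group reached a level of 228 or more, and the coefficient of variation within a group was 57.5% to 94.8%. Its log2 fold change with age was 0.91 ± 0.55 in Tert+/+ mice (95% interval -0.23 to 2.04, limma adjusted p = 0.586; 0.40 without young replicate 1 and 1.38 without young replicate 5 of that genotype) and 0.21 ± 0.55 in G3 Tert-/- mice (limma adjusted p = 0.907).

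Cyp27b1 (10:127048250-127053006, plus strand), the enzyme of the last activating step, was near the limit of counting. It was at 15.8, 5.12, 3.12, 3.06 and 0 in old G3 Tert-/- mice, against 20.9, 6.85, 10.4, 1.66 and 1.07 in young ones, and at 7.25, 8.87, 4.87, 0 and 13.4 in old Tert+/+ mice, against 0, 0.964, 4.89, 6.47 and 5.05 in young Tert+/+ mice. A library with no read still allows a level of 2.49 to 3.38 normalized counts, which is 3 reads and covers counting error only. Two-sided exact permutation tests of the difference of means gave p = 0.579 for age in G3 Tert-/- mice and p = 0.238 for age in Tert+/+ mice, and p = 0.690 and p = 0.246 for genotype at 47 and 7 weeks. No difference was detectable at this depth.

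Within each age, loss of telomerase left no member past the test. At 47 weeks, 0 of 9 members passed, where 0.0957% of all tested genes did; no member had an unadjusted p under 0.05, against 6.58% of all tested genes, and edgeR and DESeq2 on reads recovered from the table also called 0. At 7 weeks 0 of 9 passed by limma, edgeR and DESeq2, and 0% of all tested genes passed by limma; 1 member had an unadjusted p under 0.05, against 10.7% of all tested genes. The lowest limma adjusted p was 0.812 at 47 weeks, for S100g, whose log2 fold change of -0.33 ± 0.20 had a 95% interval of -0.74 to 0.07. It was 0.451 at 7 weeks, for Slc20a2.

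Slc20a2 had counts of 85.4, 63.6, 54.6, 48.2 and 35.4 in young G3 Tert-/- mice, against 29.5, 24.1, 42.1, 27.7 and 62.3 in young Tert+/+ mice, and of 70.8, 58.3, 70.6, 49.0 and 32.3 in old G3 Tert-/- mice, against 42.5, 46.3, 47.7, 22.5 and 57.9 in old Tert+/+ mice. At each age the G3 Tert-/- mice lay higher on average with overlap. The log2 fold change was 0.64 ± 0.29 at 7 weeks (unadjusted p = 0.0344, limma adjusted p = 0.451) and 0.37 ± 0.29 at 47 weeks (limma adjusted p = 0.862); the value at 47 weeks was 0.16 without old Tert+/+ replicate 4.

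None of the other members passed either. Kl was 0.32 ± 0.17 higher on the log2 scale in young G3 Tert-/- mice (limma adjusted p = 0.483) and differed by 0.08 ± 0.17 at 47 weeks (limma adjusted p = 0.946); without the libraries that stood apart the value at 47 weeks was -0.046. Slc34a1 was -0.11 ± 0.14 at 47 weeks and -0.18 ± 0.14 at 7 weeks (limma adjusted p = 0.919 and 0.595). Calb1 was 0.08 ± 0.15 at 47 weeks and 0.18 ± 0.15 at 7 weeks (limma adjusted p = 0.945 and 0.637). S100g differed by 0.0061 ± 0.20 at 7 weeks (limma adjusted p = 0.995), with a 95% interval of -0.40 to 0.41. For Slc34a3 the interval was -0.86 to 0.27 at 47 weeks and -0.57 to 0.56 at 7 weeks, and for Trpv5 it was -0.51 to 0.54 at 47 weeks and -0.65 to 0.40 at 7 weeks. For Vdr the 95% interval of the log2 fold change was -0.37 to 0.17 at 47 weeks and -0.24 to 0.30 at 7 weeks. Cyp24a1 had the widest, -1.71 to 0.57 at 47 weeks and -1.01 to 1.27 at 7 weeks, and its sign at 7 weeks turned with the tool used.

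The age effect was next tested in Tert+/+ mice alone and for its difference between genotypes. In Tert+/+ mice alone 0 of 9 members passed by limma, edgeR and DESeq2, where 0.649% of all tested genes passed, and 4 members had an unadjusted p under 0.05, against 10.6% of all tested genes. In the interaction 0 of 9 passed by limma, edgeR and DESeq2, and 0.00684% of all tested genes passed by limma; no member had an unadjusted p under 0.05, against 6.22% of all tested genes. The log2 fold change with age was below 0 for 8 of 9 members in G3 Tert-/- mice (median -0.29, all genes 0.0031) and for 7 of 9 in Tert+/+ mice (median -0.32, all genes 0.0036), where 49.5% and 49.3% of all tested genes were below 0.

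**Figure D4:**
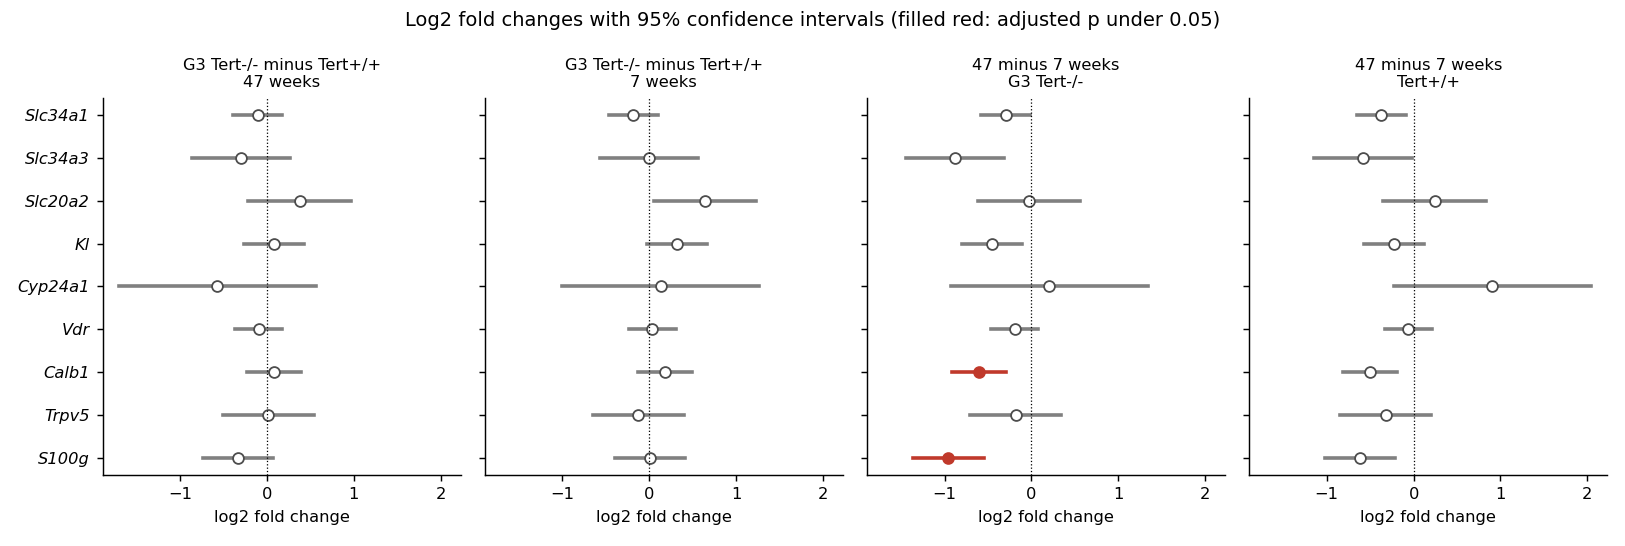
Log2 fold change of the 9 tested genes with its 95% interval (x axis), for genotype at each age and for age in each genotype; filled red points passed at an adjusted p under 0.05 by limma. In G3 Tert-/- mice the intervals of S100g (-1.36 to -0.55) and Calb1 (-0.92 to -0.29) lie below 0 and pass.

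Averaging the age effect over both genotypes, a contrast chosen after the data had been seen, brought 4 of 9 members past the test, all lower in old mice, where 4.49% of all tested genes passed in either direction and 2.43% of all tested genes passed as lower. S100g fell by 0.79 ± 0.14 on the log2 scale (limma adjusted p = 0.00116), Calb1 fell by 0.55 ± 0.11 (limma adjusted p = 0.00276) and Slc34a3 fell by 0.73 ± 0.19 (limma adjusted p = 0.0297). Slc34a1 fell by 0.33 ± 0.10 (limma adjusted p = 0.0485) and was at the threshold. Its adjusted p was 0.0526 with TMM scaling, 0.0512 with a pseudocount of 5 and 0.0848 with no filter on low counts. Leaving out 1 mouse at a time, S100g and Calb1 kept their calls in all 20 omissions, Slc34a3 in 13 and Slc34a1 in 7. Kl, at -0.34 ± 0.12 (limma adjusted p = 0.108), passed only without old G3 Tert-/- replicate 1 (0.0470) or young Tert+/+ replicate 1 (0.0420). Averaging the genotype effect over both ages brought 0 of 9 past the test by limma, edgeR and DESeq2, with 1 unadjusted p under 0.05, where 0.0273% of all tested genes passed; the unadjusted p was under 0.05 in 11.1% of all tested genes. That 1 member was Slc20a2 at 0.51 ± 0.20 (limma adjusted p = 0.405).

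By genotype, or in the interaction, no gene of the 3 lists passed. The median log2 fold change with age in G3 Tert-/- mice was 0.015 for the phosphate list, 0.06 for the calcium and magnesium list and 0.07 for the vitamin D list, beside 0.0031 for all tested genes. The same medians in Tert+/+ mice were below 0, at -0.068, -0.045 and -0.098, beside 0.0036 for all tested genes. Of 17 tested genes of phosphate transport and its regulation, 0 rose and 2 fell with age in G3 Tert-/- mice, where 2.24% of all tested genes passed and 1.31% of all tested genes were lower. Pdzk1, a scaffold protein that binds Slc34a1 in the brush border, fell by 0.38 ± 0.10 on the log2 scale, to 3205 ± 80.1 in old mice against 4181 ± 415 in young ones (SD, n = 5 each; limma adjusted p = 0.0398). Slc37a4, the glucose-6-phosphate carrier of the endoplasmic reticulum, fell by 0.64 ± 0.13, to 684 ± 74.4 in old mice against 1076 ± 183 in young ones (limma adjusted p = 0.00655). In Tert+/+ mice the same log2 fold changes were -0.32 ± 0.10 for Pdzk1 (limma adjusted p = 0.165) and -0.28 ± 0.13 for Slc37a4 (limma adjusted p = 0.421). Pdzk1 kept its call in 8 of 20 omissions of 1 mouse, and Slc37a4 in all 20.

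None of 21 tested calcium and magnesium genes passed in either genotype. The exit route partners of the calbindins, named here after their values were seen, had log2 fold changes with age of 0.15 ± 0.13 (Slc8a1, limma adjusted p = 0.670) and 0.18 ± 0.11 (Atp2b1, limma adjusted p = 0.452) in G3 Tert-/- mice, and of 0.0001 ± 0.13 (Slc8a1, limma adjusted p = 0.9997) and -0.13 ± 0.11 (Atp2b1, limma adjusted p = 0.701) in Tert+/+ mice. Of 20 tested genes of vitamin D metabolism and signalling, 1 rose with age in G3 Tert-/- mice, where 0.93% of all tested genes passed as higher, and none passed in Tert+/+ mice. It was Gc, which encodes the plasma vitamin D binding protein, made mostly by the liver. Gc ranged over 102 to 488 (median 186) in old G3 Tert-/- mice against 45.4 to 78.2 (median 71.8) in young ones, and over 70.5 to 109 (median 84.7) in old Tert+/+ mice against 48.2 to 75.7 (median 51.8) in young ones. Its log2 fold change with age was 1.60 ± 0.28 in G3 Tert-/- mice (limma adjusted p = 0.00216) and 0.61 ± 0.28 in Tert+/+ mice (limma adjusted p = 0.433), and the interaction of 0.98 ± 0.40 did not pass (limma adjusted p = 0.774). Beside it, the 6 listed hepatocyte markers summed to 677 to 1202 in old G3 Tert-/- mice against 1295 to 2131 in young ones; of them Serpina1a rose by 1.93 and Ttr fell by 1.52 on the log2 scale in that genotype.

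Mice of a group also differed among themselves, and members followed each other in that variation to different degrees. After group means were subtracted, the 36 pairs of tested members had Pearson correlations of log2 values from -0.40 to 0.78 over 20 libraries, with a median of 0.23. Kl and Calb1 had the highest, 0.78, and 0.80 over the 18 libraries left without the pair that stood apart. Slc34a1 and Vdr reached 0.77, and 0.53 over those 18. The calbindins S100g and Calb1, which shared the age effect, had 0.23 over 20 libraries and 0.50 over 18. These values are descriptive, since all genes of a mouse share its library and tissue piece.

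**Figure D5:**
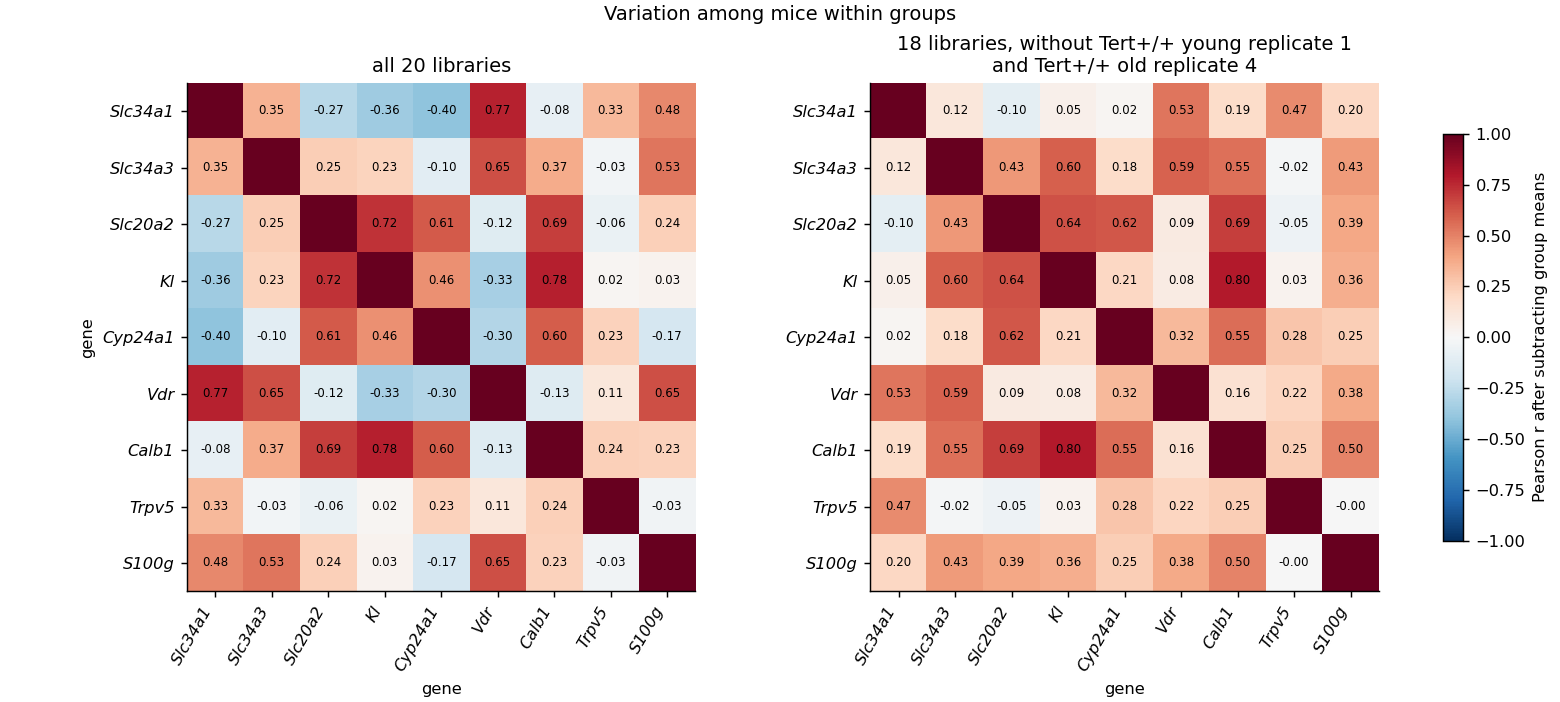
Pearson correlation between the 9 tested genes after subtracting group means of log2(normalized count + 1), over all 20 libraries (left) and over 18 libraries (right); colour and printed number give r. Kl, Calb1 and Slc20a2 keep high values in both panels, and negative values of Slc34a1 with Kl and Cyp24a1 on the left are near 0 on the right.

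Among all tested genes outside the group, those whose variation among mice was most like a member's were found by the same measure. For Calb1 they were Slc2a2 (r = 0.92), Dact1 (0.90) and Tcp11l2 (0.86) over 20 libraries, and the same 3 genes came first over 18. For Kl they were Rnf5 (0.95), Iscu (0.94) and Ctsl (0.93), of which Rnf5 also led over 18 libraries (0.92). For S100g they were Evpl (0.88), Gstk1 (0.82) and Mif (0.81), and Evpl again led over 18 libraries (0.84).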

How the data were processed

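Kidney RNA of 20 mice was made into 3′ end libraries (QuantSeq, FWD kit, sense strand) from 300 ng of total RNA with quality scores of 5.0 to 7.5, per the labels' protocols. Per the submitters' processing notes, the build was GRCm38 and the tools included HTSeq 0.6.1, DESeq2, TopHat2 2.0.10 with Bowtie 1.0.0, FastQC 0.11.7 and SAMtools 0.1.19. The authors deposited 1 table of normalized read counts (a signal, not whole counts); the sources used here do not state the scaling. In each library 100% of values were whole multiples of 1 step (tolerance 1e-06), and dividing by it gave whole reads; an exact 0 is no read.

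Values were tested as log2(normalized count + 1) with limma 3.58.1 (R 4.3.3, trend, 4 group means in 1 model, two-sided), keeping 14630 genes with 10 or more in at least 5 libraries. Cyp27b1, under that minimum, had exact permutation tests. Alternatives were edgeR 4.0.16 and DESeq2 1.42.0 on the recovered reads, TMM scaling, pseudocounts of 0.5 and 5, no filter and a minimum of 50, fits of 2 groups only, each library left out, and both libraries that stood apart left out. The limma fit was also run on simulated data with changes set in old G3 Tert-/- mice. At 47 weeks it called 23.9% of 1.5-fold, 77.6% of 2-fold and 100% of 4-fold changes. Of its 142 calls, 8 were false. The labels name no batch, pairing or replicate numbers, so numbers follow the order of deposit. The 10 genes are all described. From the pathway lists, genes past the test are named where their higher group averaged 20 or more. Nearest genes are the 3 with the highest correlation to a member, leaving out genes known only by a Gm number, Rik name or identifier. Members and lists were chosen with earlier results of these data known. Gene positions are from GENCODE for GRCm38. Fgf23, Ankh, Cldn14, Calb2 and Pth were not in the authors' table under those names. Phex, Trpv6 and Rxrg were under the minimum.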

Additional observations from a re-analysis of the deposited data

Results flagged for a closer look

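In 3 of 40 groups of 5 mice checked (10 genes in 4 groups), 1 mouse lay far from the others of its group. Chance alone flags about 1 in 20 groups where values are independent and normally spread. The 40 groups come from the same 20 mice, so that rate is only a rough guide. All 3 were high values in young Tert+/+ mice. Vdr was 2538 in replicate 1, where the other 4 mice had 1425 to 1652; this library also stood apart over all genes. Calb1 was 3283 in replicate 5, where the others had 1918 to 2220. Trpv5 was 53.0 in that same replicate 5, where the others had 39.5 to 41.6.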

How the results depend on the processing

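Within each genotype and age, and in the interaction, the number of members called was the same under both count tools, TMM scaling, both pseudocounts, both other filters, fits of 2 groups and without both libraries that stood apart. For age averaged over genotypes it was 3 in place of 4 with TMM scaling, a pseudocount of 5 or no filter, where Slc34a1 was lost, and 4 under the others. S100g and Calb1 in G3 Tert-/- mice passed in each of these, with adjusted p of 0.000374 to 0.0109 and 0.00883 to 0.0375. Leaving out 1 mouse at a time, the count of members called was 1 to 3 for age in G3 Tert-/- mice and 2 to 5 for age averaged over genotypes (chosen after seeing the data), and 0 in the other 5 comparisons; the 2 were reached without old G3 Tert-/- replicate 2 or 5, old Tert+/+ replicate 2, young G3 Tert-/- replicate 2 or 4, or young Tert+/+ replicate 5. Slc34a3 passed for age in G3 Tert-/- mice without old replicate 1 of that genotype (adjusted p = 0.0413). With no filter, Pdzk1 in G3 Tert-/- mice had an adjusted p of 0.0633.

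Signs turned only for differences that had not passed. Without both libraries, the log2 fold change by genotype was -0.046 for Kl at 47 weeks, and 0.17 for Slc34a3 and -0.37 for Cyp24a1 at 7 weeks, and that by age was 0.058 for Vdr in Tert+/+ mice. By genotype at 7 weeks, edgeR and DESeq2 gave -0.23 and -0.22 for Cyp24a1 and -0.041 and -0.037 for S100g. Over single omissions the genotype values at 7 weeks ran from -0.37 to 0.60 for Cyp24a1, -0.11 to 0.20 for S100g, -0.16 to 0.17 for Slc34a3, -0.31 to 0.025 for Trpv5 and -0.042 to 0.18 for Vdr, and those at 47 weeks from -0.046 to 0.18 for Kl and -0.17 to 0.19 for Trpv5. The age values ran from -0.11 to 0.49 for Cyp24a1, -0.18 to 0.16 for Slc20a2 and -0.36 to 0.0036 for Trpv5 in G3 Tert-/- mice, and from -0.12 to 0.085 for Vdr in Tert+/+ mice. The Cyp27b1 difference of means ran from -5.34 to 0.442 by age in G3 Tert-/- mice and from -4.04 to 0.181 by genotype at 47 weeks. Other values that had not passed kept their sign but moved by over 1.5 times. By age over single omissions these were Cyp24a1 (0.40 to 1.38), Slc20a2 (0.11 to 0.46) and Kl (-0.32 to -0.092) in Tert+/+ mice and Vdr (-0.23 to -0.12) in G3 Tert-/- mice. By genotype at 47 weeks they were Cyp24a1 (-0.89 to -0.32), Slc34a3 (-0.48 to -0.069), Slc20a2 (0.16 to 0.56), S100g (-0.41 to -0.21), Slc34a1 (-0.15 to -0.056) and Calb1 (0.0027 to 0.17), and at 7 weeks Calb1 (0.11 to 0.32) and Slc34a1 (-0.24 to -0.073). The interaction ran from -0.53 to -0.22 for S100g and -0.24 to -0.017 for Calb1. The Cyp27b1 difference of means ran from 1.77 to 5.11 by age in Tert+/+ mice and from 1.51 to 6.47 by genotype at 7 weeks. The age value of Cyp24a1 in Tert+/+ mice was 0.57 by both edgeR and DESeq2. The cause was not tested.

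Counts over all genes moved more. For genotype at 47 weeks 14 genes passed by limma, 52 by DESeq2, 6 with 2 groups and 2 to 19 over single omissions; at 7 weeks 0 passed by limma (1559 at an unadjusted p under 0.05), 13 by DESeq2 and 0 to 2 over omissions. For age in G3 Tert-/- mice 327 passed, 530 by DESeq2, 661 without both libraries and 192 to 497 over omissions; in Tert+/+ mice 95 passed, 211 by DESeq2, 53 with 2 groups and 56 to 125 over omissions. The interaction gave 1, 7 by DESeq2, 0 without both libraries and 0 to 2 over omissions, and genotype averaged over ages gave 4, 56 by DESeq2, 2 with a minimum of 50 and 0 to 7 over omissions. No paired analysis was possible because the labels name no pairing of mice. With 5 mice in a group and 7161690 to 9757594 reads, the SE of a member's log2 fold change was 0.13 to 0.55. Small changes of any member could thus be missed, most of all those of Cyp24a1, Slc20a2, Slc34a3 and Trpv5. Over all genes of the simulated data, 23.9% of 1.5-fold changes were called. Cyp27b1 was near the counting limit.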
